A study of Homo sapiens with 6 samples.

Results

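Chemokines and their receptors were described in UE7T-9 cells, a human mesenchymal stem cell line from bone marrow, with and without knockout of SRRM4, a gene for a neuronal splicing regulator. The genes were taken by annotation, as all protein-coding genes whose symbols begin with the chemokine ligand or receptor stems CCL, CXCL, CX3CL, XCL, CCR, CXCR, CX3CR, XCR or ACKR followed by a number. This gave 66 of 58735 genes, of which 44 code for ligands, 18 for signalling receptors and 4 for atypical receptors. Total RNA was sequenced as non-stranded mRNA-seq from 3 libraries of UE7T-9 cells given as wild type (control) and 3 libraries of the UE7T-9 SRRM4 KO line. The SRRM4 KO line was made with a lentiviral CRISPR v2 vector and cloned from single cells, so the group stands for 1 clone, and the study could not show complete loss of the protein. Both groups were kept in DMEM. The study's methods describe UE7T-9 cells with a lentiviral Cas9 that went into its later work, and its discussion raises lentivirus infection for the control, but which cells gave the control libraries is not stated outright, so a vector in them cannot be told from the sources used here. They also do not say whether the 3 libraries of a group came from separate cultures, so the p-values measure the spread between these libraries.

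Chemokines are small secreted proteins that bind to heparan sulfate on cells and matrix and direct the movement of cells along their gradients. They act through G protein-coupled receptors, while atypical receptors bind the ligand without G protein signalling and remove it. In bone marrow, CXCL12 from stromal cells holds blood-forming stem cells in place through the receptor CXCR4, and ACKR3 takes up the same ligand. CXC ligands with the ELR motif, such as CXCL1, CXCL2, CXCL5 and CXCL8, attract neutrophils through CXCR1 and CXCR2, and CC ligands such as CCL2 and CCL5 attract monocytes and lymphocytes.

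The 4 ELR ligands with the most reads lie in a cluster on chromosome 4, and their upstream sequences are shown because they share a short element and differ in their RNA levels, given further on. They are the 120 bases before the transcription start in RefSeq (GRCh38.p14), written in the direction of the gene, and the capitals mark the match to the core of the NF-κB element, GGANTTTCC. CXCL1 is from chr4:73869273-73869392 on the plus strand, CXCL2 from chr4:74099196-74099315 on the minus strand, CXCL5 from chr4:73998678-73998797 on the minus strand and CXCL8 from chr4:73740449-73740568 on the plus strand.
CXCL1: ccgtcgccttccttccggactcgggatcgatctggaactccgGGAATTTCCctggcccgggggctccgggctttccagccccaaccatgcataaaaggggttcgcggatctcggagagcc
CXCL2: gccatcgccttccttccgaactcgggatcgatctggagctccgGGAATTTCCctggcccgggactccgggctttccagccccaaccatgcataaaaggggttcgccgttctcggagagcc
CXCL5: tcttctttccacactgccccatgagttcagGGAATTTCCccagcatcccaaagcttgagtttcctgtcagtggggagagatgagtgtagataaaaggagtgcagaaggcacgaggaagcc
CXCL8: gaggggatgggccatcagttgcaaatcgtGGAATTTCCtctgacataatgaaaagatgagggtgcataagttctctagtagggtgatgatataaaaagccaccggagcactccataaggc

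The match began at position -78 in CXCL1, -77 in CXCL2, -90 in CXCL5 and -91 in CXCL8, counted from the start. In the 250 bases before the start, searched on both strands, GGANTTTCC was found in 1.45% of all 35116 promoter windows and in 8 of the 58 windows of the 44 chemokine and receptor genes that the promoter table holds, 1 window in each of 8 genes. These were CXCL1, CXCL2, CXCL3, CXCL5, CXCL6, CXCL8, CXCL10 and CXCL11, all of chromosome 4. The other members, CCL5, CCL2, CXCL16, ACKR3 and ACKR4 among them, had no promoter window and were not searched. The AP-1 element TGANTCA was found in 6.57% of all promoter windows and in 9 of these 58 windows, from 8 genes, and CXCL8 held it at position -137. A match is a sequence description and does not show binding.

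The libraries held between 21496117 and 23868323 counts. Levels are given as CPM, read counts brought to a common library size with TMM factors, and between genes as CPM per kilobase of gene length. Where no read was counted, as many as 3 reads are still possible, which is 0.123 to 0.139 CPM depending on the library (counting error only). SRRM4 had 0 counts in all 6 libraries, so the knockout could not be checked in the counts. Control replicate 1 had reads on 22403 genes, and the other 5 libraries on 20127 to 20674. The mesenchymal markers (8 of 8, NT5E and ENG among them) were present in all libraries, with a summed level of 40992 to 45035 CPM in control and 16938 to 18883 CPM in SRRM4 KO cells. COL1A1 and COL1A2 gave most of this sum, and the single markers went different ways, with 7116 to 7934 and 10862 to 11755 counts of NT5E and 2675 to 3468 and 523 to 670 counts of THY1 in control and SRRM4 KO cells. Of 15 haematopoietic markers, 6 had no read in any library, CD3E, CD3D, LYZ and SPI1 among them, and PTPRC had at most 2 counts. CD33 was absent from the control counts and was read 28, 21 and 16 times in SRRM4 KO cells, and ITGAM had 5, 14 and 13 counts in control and 0 in SRRM4 KO cells. HLA-DRA had 7, 11 and 9 counts in control and 0, 4 and 1 in SRRM4 KO cells, and CD14 had 347 to 377 and 324 to 392. The summed level of the 15 markers was 21.1 to 22.4 CPM in control and 19.4 to 23.3 CPM in SRRM4 KO cells. The 7 endothelial markers summed to 22.8 to 26.1 CPM in control and 4.52 to 5.95 CPM in SRRM4 KO cells, mostly from TEK (276, 288 and 336 counts in control and 34, 10 and 23 in SRRM4 KO cells) and KDR (189 to 226 and 62 to 81 counts), and CDH5 and PECAM1 had at most 3 counts. The 6 epithelial markers summed to 98.8 to 119.7 CPM in control and 102.4 to 110.2 CPM in SRRM4 KO cells, mostly from KRT18 and KRT8, and EPCAM had at most 2 counts. In bulk RNA, fewer cells with a transcript and less of it per cell cannot be told apart.

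Of the 66 genes, 30 had no read in any library, 20 had reads but stayed under the expression filter, and 16 could be tested. In SRRM4 KO cells CCL5, CXCL8, CXCL2, CCR1 and ACKR3 were higher, and CXCL12, CCL28 and CCR4 were lower (edgeR's quasi-likelihood test, Benjamini-Hochberg adjusted p below 0.05 with a log2 fold change larger than 1 either way). These 5 higher and 3 lower genes are 8 of the 16 tested, where 12.6% of all 15341 genes tested were called, 5.45% as higher and 7.14% as lower. CCL5, CXCL8 and CXCL2 passed the filter through their SRRM4 KO counts, and CCR4 through its control counts. The share of 8 in 16 thus depends on the filter and was not tested. Without the filter, 9 of the 36 genes with reads were called, where 2159 of all 27405 genes were. The median log2 fold change of the 16 genes was 0.54, against -0.01 over all genes tested. It was the same with CCR4 set to its bound, 0.31 without SRRM4 KO replicate 1 and 0.33 without SRRM4 KO replicate 3, and 0.21 over all 36 genes with reads when no filter was used. The median over all tested genes of chromosome 17, which holds CXCL16, CCL2, CCL3, CCL3L1, CCL5 and CCR10, was 0.21. It was -0.25 on chromosomes 2 (ACKR3) and 7 (CCL26), and from -0.06 to 0.11 on the other chromosomes with tested members. The part of these shifts was not tested. By role, 3 of 11 ligands were called higher and 2 lower, 1 of 3 signalling receptors was higher and 1 lower, and 1 of 2 atypical receptors was higher. No overlap between the groups was seen for 10 of these 16 genes, 7 higher and 3 lower, where 51.8% of all genes tested did not overlap.

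**Figure D1:**
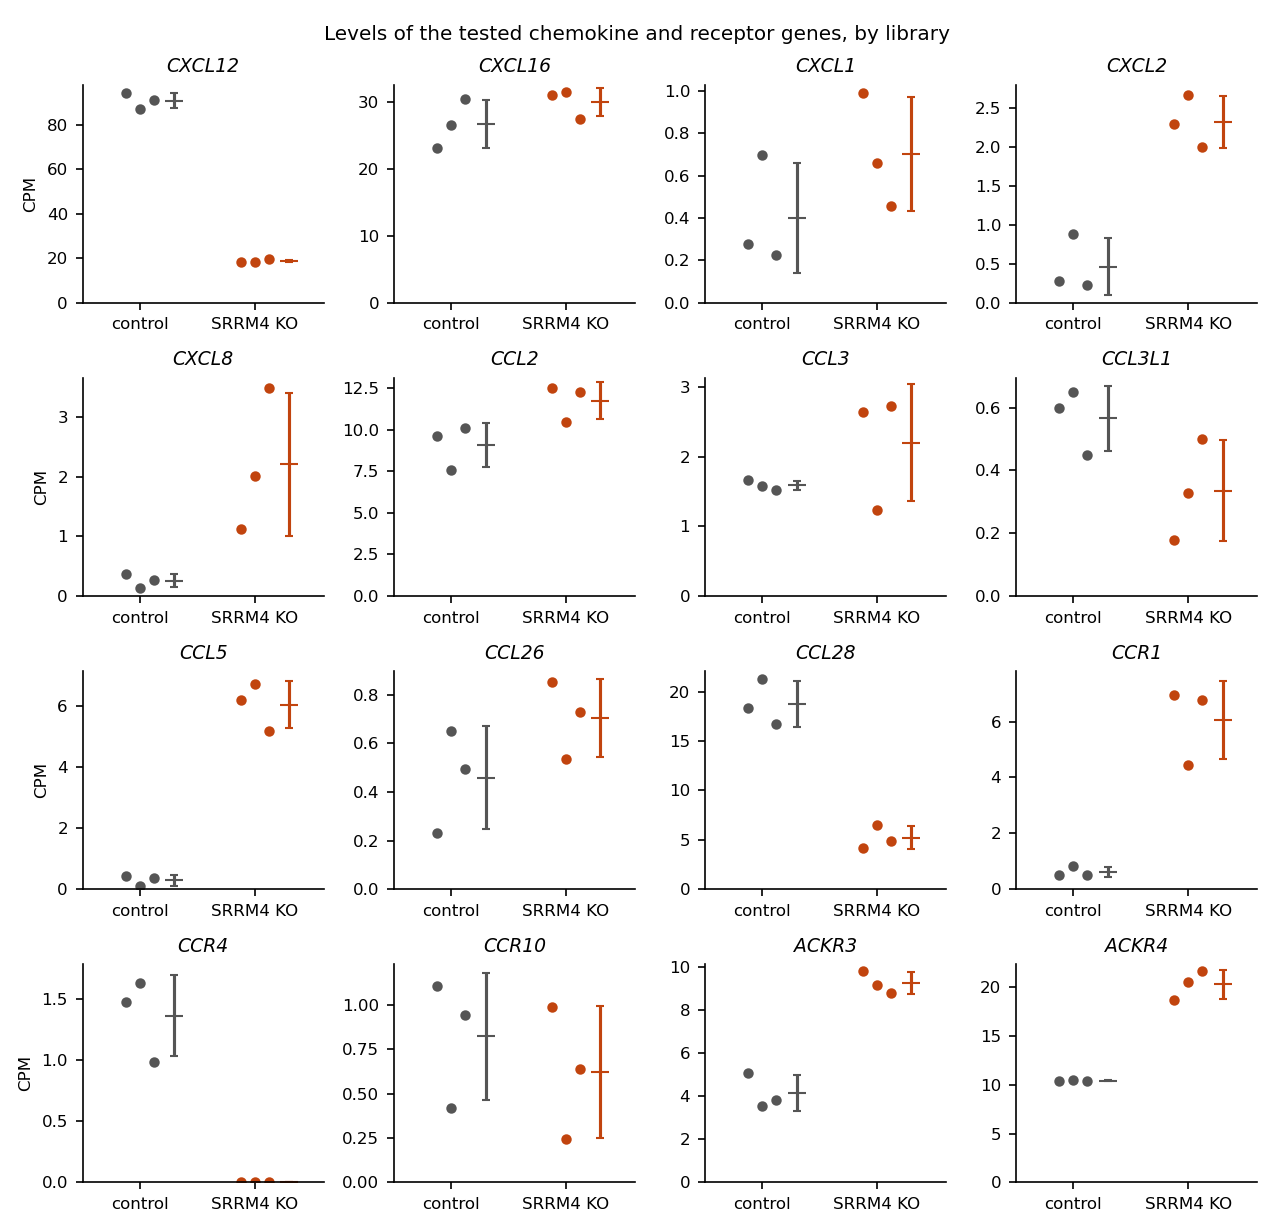
CPM of the 16 tested genes in each library (dots), with the mean and SD of 3 libraries beside them, on axes that start at 0 and differ between genes. CXCL12, CCL28 and CCR4 lie lower in all 3 SRRM4 KO libraries, and CCL5, CCR1, CXCL2, CXCL8, ACKR3, ACKR4 and CCL2 lie higher in all 3.

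**Figure D2:**
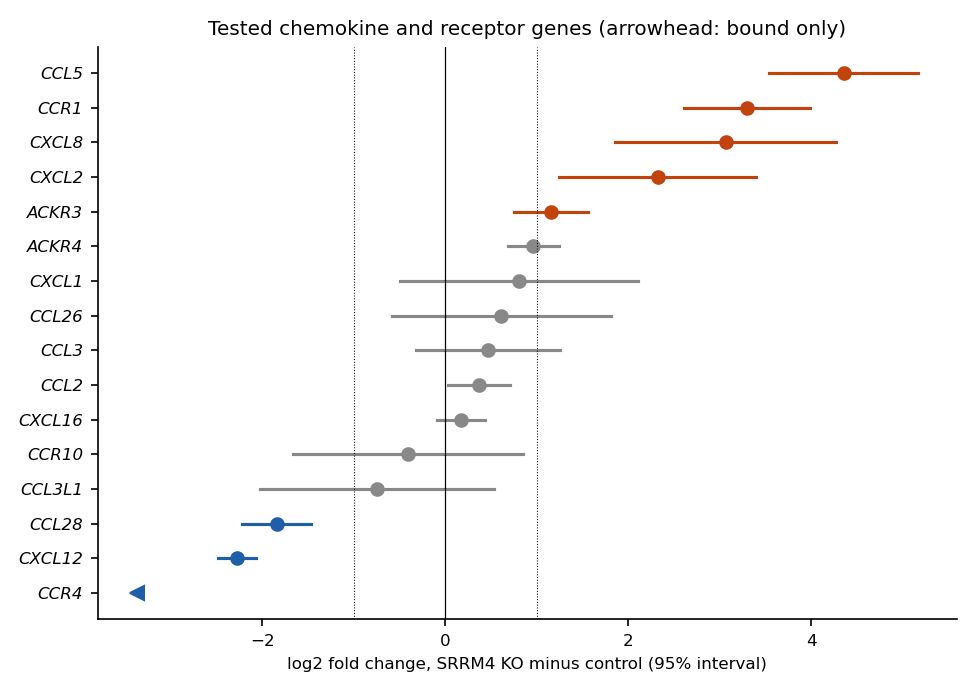
Log2 fold change (SRRM4 KO minus control) of the 16 tested genes with its 95% interval, in red for genes called higher, blue for genes called lower and grey for the others. Dotted lines mark the threshold of 1, and the arrowhead for CCR4 marks the smallest fall that the counts allow, 10.4-fold.

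CXCL12, the stromal ligand that retains blood-forming cells in the marrow, was the most abundant chemokine of the control cells. CXCL12 (ENSG00000107562, GRCh38 chromosome 10, 44370165 to 44386493) was at 94.2, 87.2 and 91.1 CPM in the control libraries and at 18.3, 18.5 and 19.4 CPM in the SRRM4 KO libraries. The groups did not overlap, and the spread within each was small beside the 4.85-fold fall (log2 fold change -2.28, standard error 0.096, adjusted p = 1.17e-10). Per kilobase, CXCL12 stood above 77.8% of the tested protein-coding genes in control and above 35.9% in SRRM4 KO cells.

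CXCR4, the signalling receptor of CXCL12, had 4 counts in control replicate 2 and none in the other 5 libraries. It stayed under the expression filter, and the 4 counts were above the limit of 3 in that library alone, so no change is given.

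ACKR3, the atypical receptor that takes up CXCL12 and CXCL11, was at 5.07, 3.53 and 3.81 CPM in control and 9.78, 9.16 and 8.77 CPM in SRRM4 KO cells. All 3 SRRM4 KO libraries were above all control libraries, a 2.23-fold rise (log2 fold change 1.16, standard error 0.19, adjusted p = 0.000161, edgeR). Tested against a log2 fold change of 1 instead of 0, this rise was not called (adjusted p = 0.734). The level of CXCL12 per kilobase was 8.33 ± 1.25 times that of ACKR3 in control and 0.756 ± 0.065 times in SRRM4 KO cells (SD, n = 3). In each control library CXCL12 was the more abundant of the pair, and in each SRRM4 KO library ACKR3 was. The other ligand of ACKR3, CXCL11, had between 0 and 7 counts in each library.

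DPP4, a cell surface protease that shortens and inactivates CXCL12, was higher in SRRM4 KO cells, at 40.9 ± 0.576 CPM in control and 132 ± 1.59 CPM in SRRM4 KO cells (SD, n = 3). DPP4 thus rose by 1.69 on the log2 scale (edgeR, adjusted p = 6.74e-10). No other protease in the list of proteins that bind or process chemokines, given further on, was called. Among them MMP2 had a log2 fold change of 0.55 and MMP14 of -0.67. The levels in the plot of CXCL12, its receptors and DPP4 are of RNA, and no protein was measured in these files.

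**Figure D3:**
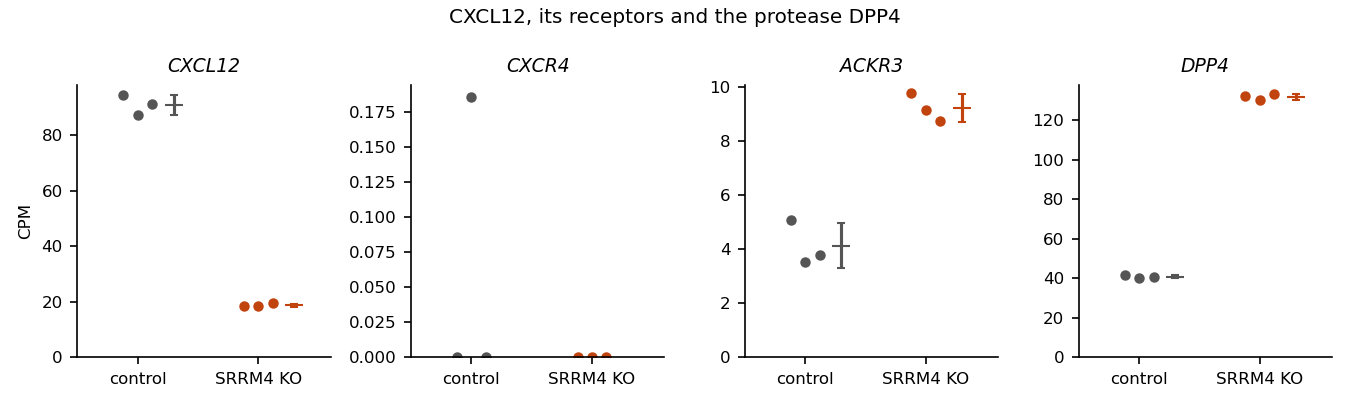
CPM of CXCL12, CXCR4, ACKR3 and DPP4 in each library (dots), with the mean and SD of 3 libraries for all but CXCR4, on axes that start at 0 and differ between genes. CXCL12 fell and ACKR3 and DPP4 rose in all 3 SRRM4 KO libraries, and CXCR4 had reads in 1 control library only.

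CXCL8 (interleukin-8), the main neutrophil attractant, had 8, 3 and 6 counts in control and 25, 49 and 77 in SRRM4 KO cells. All SRRM4 KO libraries were higher, with a wide spread among them, at 0.259 ± 0.115 CPM in control and 2.21 ± 1.20 CPM in SRRM4 KO cells (SD, n = 3). On the log2 scale CXCL8 rose by 3.06 with a standard error of 0.57 (edgeR, adjusted p = 0.000472).

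CXCL2 had 6, 19 and 5 counts in control and 51, 65 and 44 in SRRM4 KO cells. The groups did not overlap, and control replicate 2 was the highest of the control libraries. CXCL2 rose by 2.32 on the log2 scale with a standard error of 0.50 (edgeR, adjusted p = 0.00172), and by 3.18 without control replicate 2.

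CXCL1, whose upstream sequence differs little from that of CXCL2, had 6, 15 and 5 counts in control and 22, 16 and 10 in SRRM4 KO cells. These groups overlapped, and the log2 fold change of 0.81 did not pass (95% interval -0.49 to 2.10, adjusted p = 0.316, edgeR). It was 1.46 without control replicate 2 and 0.47 without SRRM4 KO replicate 1, and did not pass with any library left out. CXCL5 had 13, 7 and 14 counts in control and 7, 10 and 5 in SRRM4 KO cells, and was under the filter. Of the other ELR ligands, CXCL3 had at most 10 counts in a library and CXCL6 at most 3. All 4 genes shown above thus carry the same 9-base match, with 2 called higher, 1 not called and 1 not tested. CXCL1, CXCL2 and CXCL3 are close copies of one another, and reads that fit several of them carry an uncertainty that cannot be judged from the counts. The receptors CXCR1 and CXCR2 had 0 and 2 counts in all.

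The cluster on chromosome 4 also holds genes of the EGF family. Of 6 protein-coding genes tested within 500 kb of CXCL2, 3 were called higher, namely CXCL8, AREG (log2 fold change 1.77) and EPGN (1.42), and none lower, where 5.45% of all genes tested were called higher. CXCL1, EREG and MTHFD2L, also in this window, were not called. AREG and EPGN, which code for ligands of the EGF receptor, were named after their values were seen.

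CCL5 (RANTES), which attracts T cells and monocytes, rose most among the tested genes. CCL5 (ENSG00000271503, chromosome 17, 35871491 to 35880793) had 9, 2 and 8 counts in control and 138, 163 and 114 in SRRM4 KO cells. The lowest SRRM4 KO library was thus far above the highest control library, at 6.02 ± 0.771 against 0.289 ± 0.172 CPM (SD, n = 3), a 20.4-fold rise (log2 fold change 4.35, standard error 0.38, adjusted p = 2.89e-07, edgeR).

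CCR1, a receptor of CCL5 and CCL3 found mainly on leukocytes, had 11, 18 and 11 counts in control and 155, 108 and 149 in SRRM4 KO cells. The groups were far apart, at 0.612 ± 0.193 against 6.05 ± 1.41 CPM (SD, n = 3), a 9.82-fold rise (log2 fold change 3.30, standard error 0.32, adjusted p = 9.78e-07, edgeR). CCR1 (chromosome 3, 46201709 to 46208396) lies within the span of CCR3 on the other strand, which had no read. PTPRC, the marker that all leukocytes share, stayed at 0 or 1 count in control and reached 2 in SRRM4 KO cells, and among the myeloid markers CD33 had reads in the SRRM4 KO libraries alone and ITGAM in the control libraries alone, as given above. The part of these markers in the CCR1 result was not tested. Of 6 protein-coding genes tested within 500 kb of CCR1, none was called, where 12.6% of all genes tested were, among them CCRL2, which codes for a chemokine-binding receptor (log2 fold change 0.71, adjusted p = 0.196). CCR2, CCR3 and CCR9, which also lie in this region, had no read.

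CCL3 (MIP-1α), also a ligand of CCR1, had 36, 34 and 34 counts in control and 59, 30 and 60 in SRRM4 KO cells. The groups overlapped because of SRRM4 KO replicate 2, and the log2 fold change was 0.47 (95% interval -0.32 to 1.26, adjusted p = 0.340, edgeR). Its near-identical copy CCL3L1 had 13, 14 and 10 counts in control and 4, 8 and 11 in SRRM4 KO cells (log2 fold change -0.74, 95% interval -2.02 to 0.53). How reads were divided between these copies is not known. Of 10 protein-coding genes tested within 500 kb of CCL5, these copies among them, none was called higher and 2 were called lower, MMP28 and RASL10B, named after their values were seen, where 7.14% of all genes tested were called lower.

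CCL2 (MCP-1), the main monocyte attractant of stromal cells, was at 9.64, 7.56 and 10.1 CPM in control and 12.5, 10.5 and 12.3 CPM in SRRM4 KO cells. The groups did not overlap, but the log2 fold change of 0.37 did not pass the test (95% interval 0.03 to 0.71, adjusted p = 0.0793, edgeR). Its receptor CCR2 had no read.

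CXCL16, a membrane-bound ligand of CXCR6, was at 23.1, 26.5 and 30.3 CPM in control and 31.0, 31.4 and 27.4 CPM in SRRM4 KO cells. The groups overlapped, with a log2 fold change of 0.17 (95% interval -0.10 to 0.43, adjusted p = 0.303, edgeR). CXCL16 overlaps MED11 on the other strand. CXCR6 had 3, 11 and 8 counts in control and 5, 1 and 5 in SRRM4 KO cells, and lies inside the span of FYCO1, a gene with 1580 to 2515 counts per library, so that reads of the pair cannot be told apart by strand.

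CCL28, a ligand of CCR10 and CCR3 best known from mucosal epithelium, was at 18.4, 21.2 and 16.7 CPM in control and 4.22, 6.53 and 4.91 CPM in SRRM4 KO cells. Every SRRM4 KO library was well below the control libraries, a 3.59-fold fall (log2 fold change -1.84, standard error 0.18, adjusted p = 7.97e-07, edgeR). Of 9 protein-coding genes tested within 500 kb of CCL28, 1 was called higher and 1 lower, where 5.45% and 7.14% of all genes tested were.

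CCR10 had 24, 9 and 21 counts in control and 22, 6 and 14 in SRRM4 KO cells. These values overlapped (log2 fold change -0.41, 95% interval -1.66 to 0.85, adjusted p = 0.621, edgeR). CCR10 overlaps CNTNAP1 on the other strand, which had 1569 to 2938 counts per library.

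CCR4, the receptor of CCL17 and CCL22 on T cells, was read 32, 35 and 22 times in control, whereas all SRRM4 KO libraries lacked it. By the control mean against the limit of 3 counts per library, it was at least 10.4-fold lower (adjusted p = 4.87e-05, edgeR). CCR4 lies on chromosome 3 (32951574 to 32956349), where 1 of the 10 protein-coding genes tested within 500 kb was called higher and none lower, where 5.45% of all genes tested were called higher. CCL17 and CCL22 had no read in any library.

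CCL18, a ligand best known from macrophages, went the same way with fewer reads. The control libraries held 7, 16 and 6 counts and the SRRM4 KO libraries 0, which by the control mean is at least 3.38-fold lower. The gene was under the filter. Fitted without the filter it passed (adjusted p = 0.00234, edgeR).

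CCL26 (eotaxin-3), which attracts eosinophils through CCR3, had 5, 14 and 11 counts in control and 19, 13 and 16 in SRRM4 KO cells. The groups overlapped (log2 fold change 0.61, 95% interval -0.59 to 1.81, adjusted p = 0.417, edgeR). CCR7, the receptor of CCL19 and CCL21, had 7, 20 and 5 counts in control and 8, 9 and 16 in SRRM4 KO cells and was under the filter, and neither ligand had a read.

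ACKR4, the scavenger of CCL19, CCL21 and CCL25, was the most abundant receptor in both groups per kilobase. It was at 10.4, 10.5 and 10.4 CPM in control and 18.7, 20.5 and 21.6 CPM in SRRM4 KO cells. The groups did not overlap, and the rise of 0.96 on the log2 scale (edgeR, adjusted p = 2.78e-05) lay just under the threshold of 1, and at 1.01 without SRRM4 KO replicate 1. ACKR4 overlaps ACAD11 on the other strand, which had at most 6 counts in a library. None of its 3 ligands had a read. ACKR2 had at most 3 counts in a library and ACKR1 none.

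The remaining members with reads were CXCL10, CX3CL1, CCL8, CCL4L2, CX3CR1, CXCR3, XCL2, CCL20, CXCL13 and CCL13, each with 0 to 5 counts in a library. Of the 20 members under the filter, 11 had reads in a single library.

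Summed per kilobase over the 44 ligands, the level was 37.0 ± 1.20 CPM per kilobase in control and 31.0 ± 0.681 in SRRM4 KO cells (SD, n = 3). CXCL12 made up 40.4 ± 2.26% of this sum in control and 9.95 ± 0.508% in SRRM4 KO cells, and CCL28 11.2 ± 1.58% and 3.73 ± 0.892%. CCL5 made up 0.515 ± 0.310% in control and 12.8 ± 1.58% in SRRM4 KO cells, and CXCL2 0.834 ± 0.667% and 4.98 ± 0.726%. The order of the ligands by level per kilobase was CXCL12, CXCL16, CCL2 and CCL28 in control. CCL2 (3.81 to 5.08 CPM per kilobase) and CCL28 (3.69 to 4.70) did not differ beyond their spread. In SRRM4 KO cells the order was CXCL16, CCL2, CCL5 and CXCL12, and these 4 did not overlap between neighbours (9.82 to 11.2, 5.27 to 6.31, 3.43 to 4.43 and 3.01 to 3.20 CPM per kilobase). The sum over the 22 receptors of both kinds was 7.72 ± 0.392 CPM per kilobase in control and 15.7 ± 0.797 in SRRM4 KO cells, of which ACKR4 and ACKR3 made up the largest parts. These sums follow from the values above and were not tested.

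**Figure D4:**
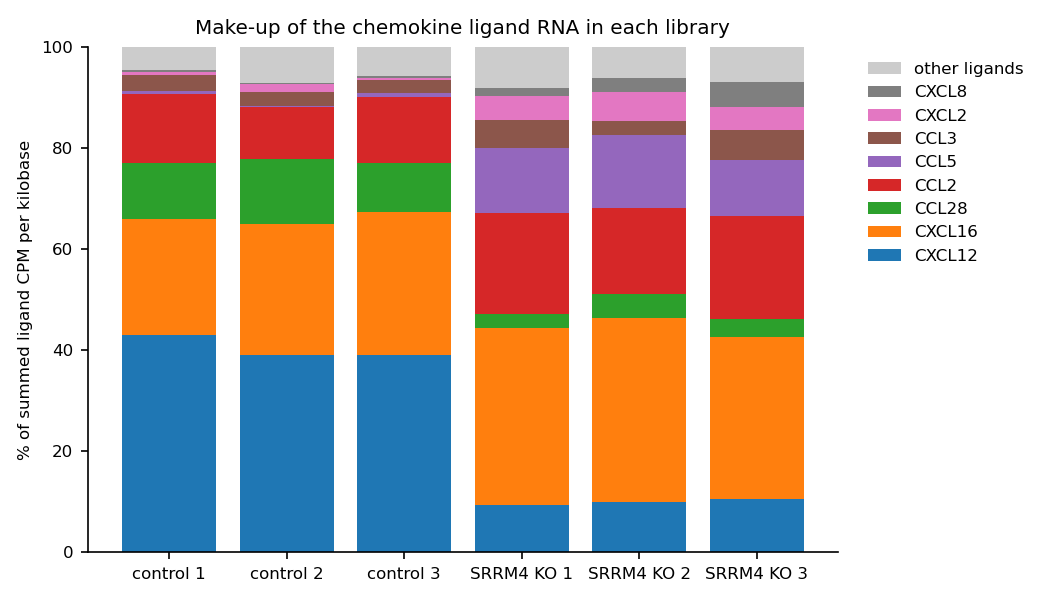
Share of each ligand in the summed CPM per kilobase of all 44 chemokine ligands, in percent, for each library. CXCL12 takes 39.1% to 43.0% in the control libraries and 9.48% to 10.5% in the SRRM4 KO libraries, and CCL5 at most 0.762% and at least 11.2%.

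Of 52 ligand and receptor pairs, 3 had more than 3 counts for both partners in every control library, and 4 did so in SRRM4 KO cells. CXCL12 with ACKR3, CCL3 with CCR1 and CCL28 with CCR10 were found in both groups (CCL3L1, the copy of CCL3, was over the limit in both but was not in the list of pairs), and CCL5 with CCR1 was added in SRRM4 KO cells, where both partners had been called higher. In 11 pairs in control and 18 in SRRM4 KO cells the ligand was over this limit and the receptor was not, CXCL12 with CXCR4 among them.

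Genes that act with the chemokines were read from 5 lists. In the list of signal transmission behind the receptors, 4 of 23 tested genes were called higher and 1 lower, or 21.7% against 12.6% of all genes tested (median log2 fold change -0.03). RAC2, a small GTPase of blood cells that drives cell movement, had 49, 54 and 114 counts in control and 566, 627 and 528 in SRRM4 KO cells (log2 fold change 2.92, adjusted p = 9.49e-08, edgeR). Of the exchange factors for Rac in this list, PREX1 (log2 fold change 1.17) and TIAM1 (1.05) were also called higher. TIAM1 was at 0.97 without control replicate 2 and at 0.99 without SRRM4 KO replicate 1, under the threshold. VAV2 (0.80), DOCK1 (-0.23) and DOCK2 (-0.94) were not called, and PREX2, VAV1 and VAV3 were not tested. PTK2B, a kinase related to focal adhesion kinase, fell by 1.56 on the log2 scale. GNAI2, a G protein subunit that chemokine receptors use, was at 327 ± 35.5 CPM in control and 333 ± 19.7 CPM in SRRM4 KO cells (SD, n = 3). The fourth gene called higher was CDC42, with 4 to 14 counts in control and 16 to 52 in SRRM4 KO cells (log2 fold change 1.83). It lies whole within another annotated gene of the same strand, so reads that fit both may not have been counted. Its call was lost when control replicate 1, control replicate 3 or SRRM4 KO replicate 1 was left out (log2 fold changes 1.51, 1.65 and 1.13, adjusted p = 0.0854, 0.0981 and 0.238, edgeR), and it was at 2.51 without control replicate 2. The list of receptor desensitisation held GRK kinases, arrestins, RGS proteins, and genes of receptor sorting and breakdown. It had 0 of 20 tested genes called higher and 1 lower, RGS5 (log2 fold change -2.88), with a median of 0.11. Thus 5% of this list were called, against 12.6% of all genes tested.

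In the list of proteins that bind or process chemokines, 3 of 21 tested genes were called higher and 3 lower, or 28.6% against 12.6% of all genes tested (median log2 fold change -0.04). Besides DPP4, the higher genes were SDC1 (syndecan-1, log2 fold change 1.24) and CD44 (1.39), proteoglycans of the cell surface that can carry heparan sulfate. The lower genes were GPC6 (glypican-6, -1.24), TPST2, which sulfates receptor tyrosines (-1.31), and CD74, a receptor of MIF. CD74 had 18, 26 and 55 counts in control and 4, 0 and 0 in SRRM4 KO cells, a log2 fold change of -4.56 (edgeR, adjusted p = 0.000609) that was -3.98 without SRRM4 KO replicate 2. Without SRRM4 KO replicate 1 no read was left in the group, and by the control mean CD74 was at least 11.6-fold lower. MIF had at most 13 counts in a library and almost all of it lies within another annotated gene of the same strand, so its counts may not give its level. Of transcription regulators of chemokine genes, 2 of 29 were called higher and 1 lower, a share of 10.3% that is near the 12.6% of all genes tested (median 0.06). The higher genes were IRF7 (1.72) and IRF9 (1.65), both of interferon signalling, and the lower gene was FOS (-1.11, and -0.98 without control replicate 3, under the threshold). NFKBIA, the NF-κB inhibitor that NF-κB itself induces, was at 32.9 ± 4.43 CPM in control and 34.4 ± 0.0391 CPM in SRRM4 KO cells (SD, n = 3).

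Of the 21 tested genes of marrow stroma rich in CXCL12, 9 were called lower and 1 higher, or 47.6% against 12.6% of all genes tested, with a median log2 fold change of -0.74 against -0.01 over all genes. LEPR, the leptin receptor that marks CXCL12-rich stromal cells in marrow, had 6495, 4437 and 5199 counts in control and 477, 496 and 525 in SRRM4 KO cells (log2 fold change -3.49, standard error 0.13, adjusted p = 4.81e-11, edgeR). The libraries were separated by a wide gap, and the fall was 11.3-fold. ANGPT1, a ligand of the receptor TEK whose counts are given above, fell by 1.89 on the log2 scale, and PDGFRB fell by 2.14. VCAM1, an adhesion molecule for blood cells, had 231, 185 and 154 counts in control and 25, 25 and 18 in SRRM4 KO cells, so the groups did not overlap (log2 fold change -3.13). The gene called higher was SPP1 (osteopontin, 2.62). KITLG, the stem cell factor that blood-forming cells need, was at 51.7 ± 4.62 CPM in control and 80.5 ± 5.98 CPM in SRRM4 KO cells (SD, n = 3). Its rise of 0.64 on the log2 scale (edgeR, adjusted p = 9.42e-05) was under the threshold of 1.

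**Figure D5:**
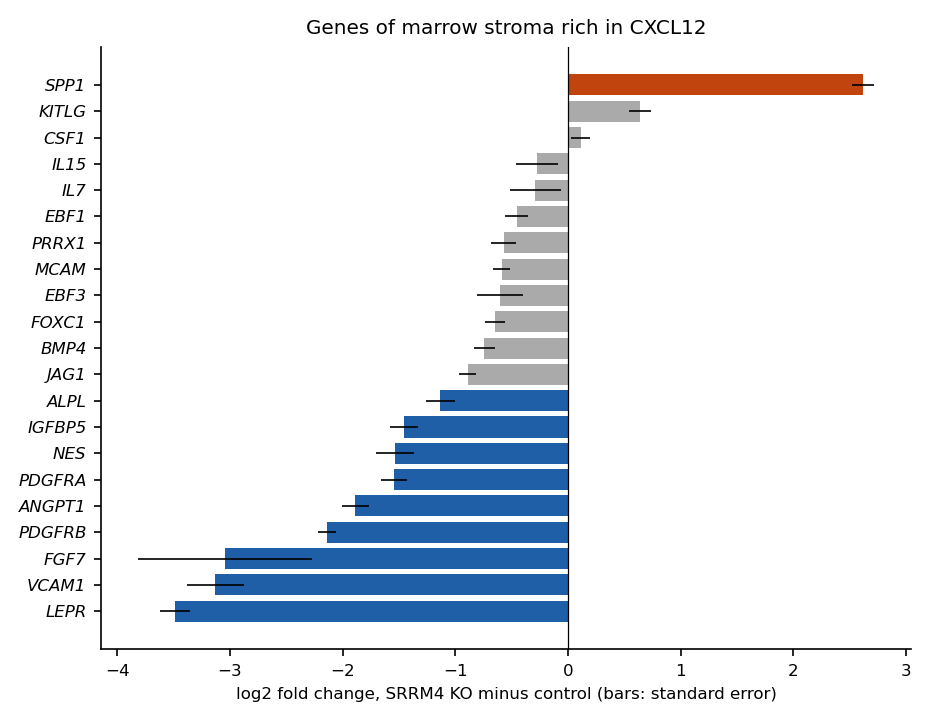
Log2 fold change (SRRM4 KO minus control) of the 21 tested genes of marrow stroma rich in CXCL12, with the standard error, in blue for genes called lower, red for genes called higher and grey for the others. LEPR (-3.49), VCAM1 (-3.13) and FGF7 (-3.04) lie lowest, and SPP1 (2.62) is the gene called higher.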

How the data were processed

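The authors deposited raw counts, whole numbers per gene without normalization, for 58735 genes and 6 libraries made with the NEBNext Ultra RNA kit. The submitters' processing notes name HISAT2 2.0.5 and featureCounts 1.5.0-p3, and their settings are not given in the sources used here, so the fate of reads that fit several genes is not known. All IDs, starts and ends equal those of GENCODE release 29 (GRCh38). Samples were grouped by title. The counts were fitted with edgeR 4.0.16 (R 4.3.3), after TMM scaling and filterByExpr, by its quasi-likelihood test, and p-values of the 15341 genes left were adjusted by Benjamini-Hochberg. The standard error is the log2 fold change over the root of F. Where all libraries of a group had 3 counts or fewer, a bound against 3 counts per library was used. It was taken from the mean of the other group and leaves out the spread of that group. Alternatives were other normalizations and filters, a block for the replicate number, leaving out single libraries, DESeq2 1.42.0, a test against the threshold, no threshold and protein-coding genes only. In simulated counts with 15001 genes tested, edgeR recovered 192 of 200 genes given a log2 change of 2, and called 3 unchanged genes. The members and lists were chosen with earlier results of these data known. The rule names every member with reads, and of each list at most 3 called genes per direction by mean CPM plus GNAI2, NFKBIA, DPP4, CD74, MIF, KITLG and VCAM1. FGF7, CDC42, ALPL, MMP2, MMP14, the exchange factors for Rac that were not called or not tested, CCRL2 and the other neighbouring genes were named beyond it.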

Additional observations from a re-analysis of the deposited data

How the results depend on the processing

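The 16 tested members kept their direction in all 216 refits that could be made, and in 214 of them the gene was called or not called as reported. The calls that differed were those of ACKR3 tested against the threshold and ACKR4 without SRRM4 KO replicate 1, both given above. ACKR4 was also called where no fold change threshold was set, which made 9 members. The number of members called was 8, and 4 under a minimum of 10 counts per library, where 8 could be tested. It was 9 with no filter and 9 with DESeq2, and from 8 to 9 with each library left out. All genes called numbered 1932, from 1865 to 1973 with each library left out. Tested against the threshold, 937 genes were called, with 7 members, 2 of the signalling list, 1 of the desensitisation list, 5 of the binding list, 1 of the transcription list and 8 of the marrow stroma list. Of the named genes followed in the refits, those that lost their call there were ACKR3, PREX1, CDC42, TIAM1, GPC6, IRF9, FOS, FGF7, AREG and, of the marrow stroma list, ALPL. MMP28 and RASL10B were not followed. Without a fold change threshold, 6384 genes were called, with 14 of the signalling list, 6 of the desensitisation list, 14 of the binding list, 14 of the transcription list and 18 of the marrow stroma list. With each library left out, the signalling list had 3 to 6 calls, with 3 without SRRM4 KO replicate 1, and the desensitisation list 1 to 2, with 2 without control replicate 2. GNAI2 had a log2 fold change of 0.024 and turned to -0.0075 with upper-quartile normalization, -0.065 without control replicate 1 and -0.031 without SRRM4 KO replicate 2, with a range of -0.065 to 0.077 over the libraries left out. NFKBIA turned from 0.062 to -0.037 without control replicate 1, with a range of -0.037 to 0.16. None of these 4 passed the test. The cause of these changes was not tested. FGF7 was at -2.45 without SRRM4 KO replicate 2 and at -3.86 without SRRM4 KO replicate 3.

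Deviations from the group mean correlated at -0.05, 0.08 and -0.05 between libraries with the same replicate number. Between libraries with different numbers the correlations ran from -0.11 to 0.16. With 3 libraries per group, these values cannot show whether a replicate number stands for a shared batch. With the replicate block, 1935 genes and 8 members were called. Low counts limit CXCL1, CCR10, CCL26, CCL3L1, CXCL2, CXCL8 and CCR4, whose 95% intervals were wider than 2 on the log2 scale.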
